A study of Homo sapiens with 6 samples.

Results

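SR proteins and heterogeneous nuclear ribonucleoproteins (hnRNPs) are RNA-binding regulators of pre-mRNA splicing, and their transcripts were compared between cells given a PRMT5 inhibitor and cells given DMSO. The set was chosen by name among protein-coding genes, with earlier results of these data known. The rule took every gene called SRSF followed by a number and every gene whose name begins with HNRNP. It also took TRA2A, TRA2B, RBM39, RBM25, U2AF1, U2AF2, PTBP1, PTBP2, PTBP3, SRRM1 and SRRM2. That gave 50 of the 58735 genes in the table. Of these, 43 reached 1 FPKM (fragments scaled by gene length and by a factor for each library) in 3 or more libraries and were tested, among 13578 genes tested in all.

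RNA was sequenced from cells labelled BxPC-3, an established line from a human pancreatic adenocarcinoma, grown in RPMI-1640 with fetal bovine serum. In 3 libraries the cells had received GSK3326595, a small-molecule inhibitor of PRMT5, and in 3 they had received DMSO; no other treatment or genetic change is named for either group, and neither the dose nor the time is given. A PRMT5 knockdown is mentioned in the series' design text, but the library labels name the inhibitor and were followed. Separate cultures are not stated for the libraries of a group. The p-values therefore reflect only the spread among these samples, and that spread may be technical.

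Splicing regulators of these families act in opposition on many exons. SR proteins carry RNA recognition motifs and a tail rich in arginine and serine, bind exonic enhancers and recruit the U1 and U2 machinery, while many hnRNPs and the polypyrimidine tract binding (PTB) proteins bind silencers and cause skipping. PRMT5 places symmetric dimethyl marks on arginines of Sm proteins and of several RNA-binding proteins, so splicing factors are a known field of its action. Many genes of these families also limit their own output by splicing in an exon with a premature stop, which sends the transcript to nonsense-mediated decay (NMD).

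Whole reads, recovered as FPKM times gene length over a factor for each library, came to 14087260 to 15724750 per library. The library size implied by the factor was 13384600 for inhibitor replicate 2, under its 14087260 reads. For inhibitor replicate 1 it was 16391600, above its 15724750 reads, so the factor was not the read total alone. Inhibitor replicate 2 stood apart: its correlation across the genes tested was 0.906 with inhibitor replicate 1 and 0.904 with inhibitor replicate 3, where that of the other 2 was 0.980 and pairs of DMSO libraries gave 0.980 to 0.983 (Pearson r over genes, which are not independent replicates). Mitochondrial transcripts took 11.3% of its reads, against 5.84% to 6.03% in the other inhibitor libraries and 4.70% to 5.01% in DMSO. PRMT5 RNA was at 13.4, 12.8 and 12.1 FPKM in the inhibitor libraries and at 23.2, 24.6 and 26.2 FPKM in the DMSO libraries; the drug acts on the protein and a knockdown on the RNA, and which of them gave the lower PRMT5 RNA was not tested. Of the markers used to check the cell type, KRT19, CEACAM6, PDX1 and the epithelial splicing regulator ESRP1 had 0 reads in all 6 libraries, where 3 reads over the 6 libraries would be 0.00675 to 0.0141 FPKM (a limit that covers counting error only). EPCAM stayed between 0.108 and 0.341 FPKM and CDH1 between 0.0884 and 0.496 FPKM. KRT7, KRT8 and KRT18 were at 101 to 451 FPKM, VIM at 58.1 to 93.2 FPKM and COL1A1 at 4.23 to 10.4 FPKM. PTPRC and PECAM1 did not exceed 0.0393 FPKM. CDKN2A and SMAD4, which BxPC-3 is known to have lost, were at 24.7 to 118 FPKM and 2.61 to 3.898 FPKM. The cells are therefore called here only by their label.

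The promoters of 4 regulators that fell with the inhibitor are shown as examples of the sequence at which these transcripts start. They are RefSeq sequences of build GRCh38.p14, from 250 bases before to 50 after the start site nearest the listed gene start, on the gene's own strand. They lie at chr6:36594112-36594411 on the plus strand for SRSF3, at chr2:38751445-38751744 on the minus strand for SRSF7, at chr3:185937965-185938264 on the minus strand for TRA2B and at chr14:21269393-21269692 on the minus strand for HNRNPC. Capitals mark matches, on either strand, to the motifs named in the next paragraph.
SRSF3: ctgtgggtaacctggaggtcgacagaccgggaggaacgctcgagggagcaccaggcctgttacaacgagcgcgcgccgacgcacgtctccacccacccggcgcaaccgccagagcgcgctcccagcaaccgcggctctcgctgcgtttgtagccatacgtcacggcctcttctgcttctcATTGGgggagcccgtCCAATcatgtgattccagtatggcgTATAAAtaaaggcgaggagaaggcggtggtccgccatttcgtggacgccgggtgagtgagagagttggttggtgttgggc
SRSF7: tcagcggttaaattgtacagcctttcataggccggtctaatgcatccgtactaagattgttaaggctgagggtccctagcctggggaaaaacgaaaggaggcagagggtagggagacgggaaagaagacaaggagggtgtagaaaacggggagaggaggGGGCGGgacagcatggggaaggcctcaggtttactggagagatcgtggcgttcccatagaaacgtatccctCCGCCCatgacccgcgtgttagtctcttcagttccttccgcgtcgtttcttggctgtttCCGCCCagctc
TRA2B: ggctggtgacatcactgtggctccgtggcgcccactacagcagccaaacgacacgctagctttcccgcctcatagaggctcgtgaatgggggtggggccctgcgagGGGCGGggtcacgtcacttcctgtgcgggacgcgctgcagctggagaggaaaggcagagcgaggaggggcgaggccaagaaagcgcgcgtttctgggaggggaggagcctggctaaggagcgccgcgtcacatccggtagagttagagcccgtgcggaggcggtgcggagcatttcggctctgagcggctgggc
HNRNPC: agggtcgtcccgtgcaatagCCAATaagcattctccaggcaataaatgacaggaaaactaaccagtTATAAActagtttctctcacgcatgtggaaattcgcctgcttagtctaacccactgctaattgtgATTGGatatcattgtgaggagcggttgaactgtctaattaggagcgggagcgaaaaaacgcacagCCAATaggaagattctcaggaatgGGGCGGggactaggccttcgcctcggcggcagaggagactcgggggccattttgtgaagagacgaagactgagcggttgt

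The SRSF3 promoter held 2 CCAAT boxes (CCAAT) and a TATA box (TATAAA), that of SRSF7 3 GC boxes (GGGCGG), that of TRA2B 1 GC box, and that of HNRNPC 3 CCAAT boxes, 1 GC box and 1 TATA box. Of the 43 regulators tested, 38 matched a promoter in the table. No limit was set on distance: the start site lay 40242 bases from the listed gene start for SRSF5, 24900 for HNRNPA1L2 and 11586 for SRRM1. Among the 38, 19 held a CCAAT box, against 37.3% of the 8454 promoters of all protein-coding genes tested that matched. A GC box was in 68.4% of the regulators' promoters and in 72.8% of all. The TATA box was in 10.5% of the regulators' promoters, against 5.09% of all, and the E-box (CACGTG) in 18.4%, against 10.7%. The ETS core (CCGGAAG) was in 15.8%, against 21.0% of all, the NRF1 motif (GCATGCGC) in 2.63%, against 5.95%, and the cyclic AMP response element (TGACGTCA) in 0.0%, against 3.48%. CACGTG and TGACGTCA read the same on both strands, and no marked matches share a base in the 4 promoters shown. A match describes letters anywhere in the window, at no set distance from the start site, and not a bound site. The TATAAA of HNRNPC lies in the upstream part of its window, away from the start site. Among the 9 matched promoters of regulators called lower, 4 held a CCAAT box and 7 a GC box.

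Where transcripts of SR proteins and hnRNPs were called, they were lower with the inhibitor. Of the 43 regulators tested, 11 fell and 0 rose, with a call set at 0.05 for limma's p adjusted by Benjamini-Hochberg over all genes tested. Among all genes tested, 10.0% were called lower and 7.18% higher, and among the protein-coding genes tested 10.9% were called lower. With limma, 19 regulators were lower and 0 higher at an unadjusted p under 0.05, where 2712 of the 13578 genes tested were lower. Limma-voom on the recovered reads called 12 lower and 0 higher, against 10.8% of all genes called lower. The median log2 fold change was −0.32, against −0.05 over all genes tested (on the log2(FPKM + 1) scale, which understates changes at low values), and 35 of the 43 lay below 0, against 54.7% of all genes. The regulators had a median DMSO level of 34.8 FPKM against 5.50 FPKM over all genes tested. With the filter at 5 FPKM, 10 of 40 regulators were called lower, against 1059 of 7382 genes, and the medians were −0.32 and −0.14. With quantile normalization the regulators' median was −0.19. All 3 inhibitor libraries lay below all 3 DMSO libraries for 26 of them and above for 1, where the shares of all genes tested were 26.7% and 19.2%. The 11 were SRSF2, SRSF3, SRSF4, SRSF7, TRA2B, RBM39, HNRNPC, HNRNPDL, HNRNPH1, HNRNPH3 and PTBP2. Summed over the 50 genes, the level was 1757, 1605 and 1658 FPKM in the inhibitor libraries, against 2049.5, 2047 and 1973 FPKM in the DMSO libraries, with no overlap. In these bulk libraries fewer cells of a kind and less RNA per cell cannot be told apart.

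These calls depended on which libraries entered. Without inhibitor replicate 2, 23 of the 43 were called lower, the same 11 among them, and 2 higher, against 23.1% and 17.5% of all genes tested. Without inhibitor replicate 1, 5 were called lower, against 4.79% of all genes. Without inhibitor replicate 3 the number was 1, a smaller share than the 5.85% of all genes. Without DMSO replicates 1, 2 or 3 it was 0, against 1.94%, 2.1% and 2.33% of all genes. At an unadjusted p under 0.05 (limma), 12, 12 and 14 were then lower, against 14.1%, 14.6% and 14.4% of all genes. The processing mattered as well: 5 were called lower with quantile normalization, against 7.76% of all genes, 6 with no filter, against 2.76%, and 7 with TPM, which rescales each library to the same total per length, against 9.04%. SRSF3, SRSF7 and TRA2B were called under every setting that kept all libraries. Quantile normalization ended the calls of SRSF2, SRSF4, RBM39, HNRNPC, HNRNPDL and HNRNPH1, testing without a filter those of SRSF2, HNRNPC, HNRNPDL, HNRNPH1 and PTBP2, and TPM those of SRSF2, SRSF4, HNRNPC and HNRNPDL. Without a mean-variance trend the call of SRSF4 was lost. With the replicate number as a block, 5 regulators were called lower, against 872 of the 13578 genes tested. That block ended the calls of SRSF2, SRSF4, HNRNPC, HNRNPDL, HNRNPH1 and HNRNPH3. None of the 11 was called in all 6 fits that left out 1 library. Over all genes, 17.9% of the genes called were called in each of those fits.

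**Figure D1:**
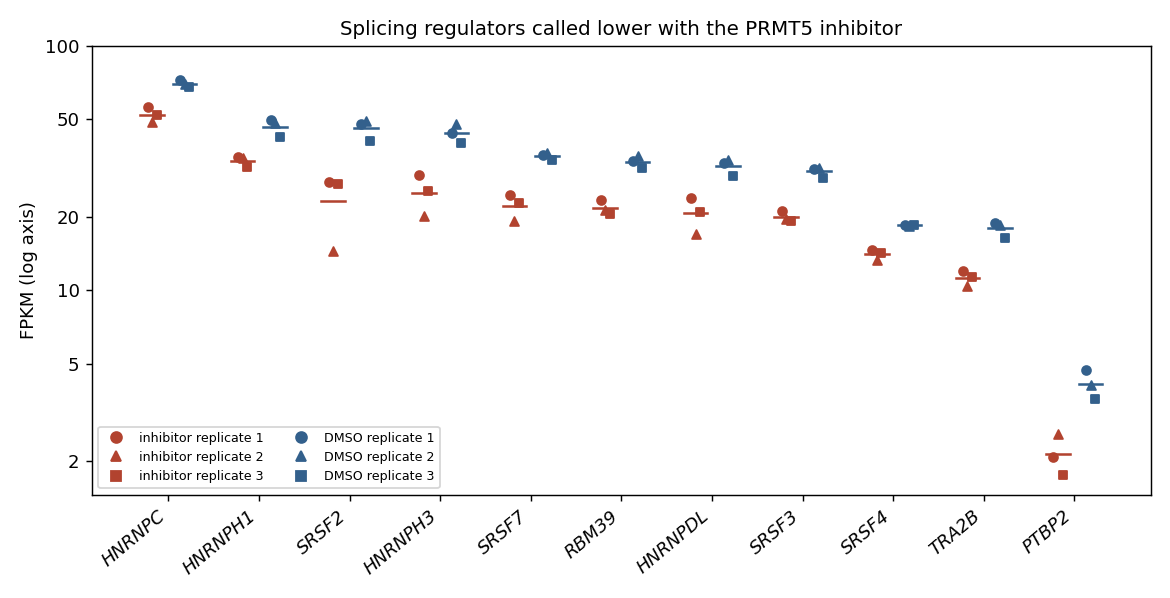
FPKM (log axis) of the 11 splicing regulators called lower, ordered by DMSO level; each point is 1 library (inhibitor left, DMSO right), its shape gives the replicate number and bars are group means. The groups do not overlap for any of the 11, which were chosen by the test on these same values. The inhibitor libraries also all lay below DMSO for 15 of the 32 regulators not called and for 26.7% of all genes tested. SRSF2 in inhibitor replicate 2, at 14.4 FPKM, is the point farthest below its own group.

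Among the SRSF genes, which encode the classical SR proteins, 11 of 12 were tested, 4 fell and 0 rose. Their median log2 fold change was −0.46. A fall was called for 10.0% of all genes tested. SRSF3 (ENSG00000112081, chromosome 6, 36594353 to 36605600, hg38) encodes the smallest of the family, which also serves in mRNA export and alternative polyadenylation. It was at 21.1, 19.6 and 19.2 FPKM in the inhibitor libraries, against 31.4, 31.8 and 28.7 FPKM in the DMSO libraries. The inhibitor libraries lay close together and all below DMSO, and the log2 fold change came to −0.59 (SE 0.10, adjusted p = 0.0156, limma).

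SRSF7 (ENSG00000115875, chromosome 2, 38743599 to 38751494), a paralogue of SRSF3 that differs by a zinc knuckle, was at 24.4, 19.2 and 22.7 FPKM with the inhibitor, against 35.6, 36.3 and 33.98 FPKM with DMSO. Its groups were also apart, and the log2 fold change was −0.66 (SE 0.12, adjusted p = 0.0185, limma). SRSF2 (ENSG00000161547, chromosome 17, 76734115 to 76737374), an exonic enhancer binding protein recurrently mutated in myeloid disease, was at 27.7, 14.4 and 27.2 FPKM with the inhibitor, against 47.98, 49.1 and 40.8 FPKM with DMSO. Inhibitor replicate 2 was well under the other 2, so the size of the change depends on it: −1.01 (SE 0.26, adjusted p = 0.0426, limma) with it and −0.72 without. SRSF2 overlaps MFSD11 on the opposite strand, and the strand setting of the read counting is not stated. SRSF4 (ENSG00000116350, chromosome 1, 29147743 to 29181987), a large SR protein, was at 14.6, 13.3 and 14.2 FPKM with the inhibitor, against 18.5, 18.3 and 18.5 FPKM with DMSO. Its change was the smallest of the 4, −0.37 (SE 0.10, adjusted p = 0.0460, limma), over DMSO libraries that nearly coincide.

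The other SRSF genes did not pass the test with all libraries. SRSF5, whose product promotes exon inclusion, was at 25.4, 7.57 and 23.3 FPKM with the inhibitor, against 36.3, 34.7 and 32.8 FPKM with DMSO. All 3 inhibitor values were below DMSO, but replicate 2 was 0.311 times the mean of the other 2, and the log2 fold change of −1.01 had an SE of 0.42 (adjusted p = 0.145, limma). SRSF9 showed the same shape, with 32.9, 10.6 and 34.7 FPKM with the inhibitor against 39.1, 36.7 and 42.8 FPKM with DMSO (−0.75, SE 0.43, adjusted p = 0.264, limma). Without inhibitor replicate 2 the log2 fold change was −0.49 for SRSF5 (adjusted p = 0.00422, limma) and −0.22 for SRSF9 (adjusted p = 0.0770, limma).

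SRSF6 and SRSF1, the founding member of the family, departed the other way, with inhibitor replicate 2 above the other inhibitor libraries. SRSF6 was at 24.9, 32.6 and 23.9 FPKM with the inhibitor, against 38.3, 38.6 and 35.01 FPKM with DMSO, and SRSF1 at 10.9, 13.7 and 9.05 FPKM, against 14.9, 16.8 and 12.2 FPKM. Neither was called with all libraries, and both were without inhibitor replicate 2 (log2 fold changes −0.59 and −0.50), as was SRSF5. SRSF8, an intronless copy of SRSF2, and SRSF11 had log2 fold changes of −0.32 and −0.18. SRSF10, which acts as a repressor of splicing when dephosphorylated, was the SRSF gene with a value above 0: 20.7, 16.5 and 16.6 FPKM with the inhibitor, against 16.4, 16.6 and 13.2 FPKM with DMSO (0.21, SE 0.15, adjusted p = 0.359, limma). Its groups overlapped. SRSF12 was under the filter, with at most 5 reads in a library.

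Of the SR-like proteins and coactivators, 6 of 6 were tested, 2 fell and 0 rose, against 10.0% of all genes called lower. Their median log2 fold change was −0.36. TRA2B (ENSG00000136527, chromosome 3, 185915906 to 185938136), the human homologue of the fly sex determination factor Transformer-2, which binds GAA-rich enhancers, was at 12.04, 10.4 and 11.3 FPKM with the inhibitor, against 18.8, 18.6 and 16.4 FPKM with DMSO. The groups were apart in every library (−0.63, SE 0.11, adjusted p = 0.0162, limma). Its paralogue TRA2A was at 12.1, 13.6 and 9.44 FPKM with the inhibitor, against 14.6, 15.6 and 15.6 FPKM with DMSO, and was not called (−0.37, SE 0.15, adjusted p = 0.136, limma), although it was without inhibitor replicate 2 (−0.47). RBM39 (ENSG00000131051, chromosome 20, 35701347 to 35742312), a U2AF-related coactivator known as the protein degraded by aryl sulfonamides, was at 23.3, 21.3 and 20.6 FPKM with the inhibitor, against 33.7, 35.5 and 31.7 FPKM with DMSO. Replicate 2 did not stand out for this gene (−0.61, SE 0.11, adjusted p = 0.0161, limma).

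The matrix proteins of nuclear speckles and RBM25 were not called. SRRM2, a scaffold of the speckle, had the highest level of the 6, with 77.6, 101 and 90.9 FPKM with the inhibitor, against 86.4, 85.04 and 96.2 FPKM with DMSO. Its groups overlapped throughout and the sign of the change, 0.0059 (SE 0.14), turned with TPM, with the length trend removed and without 4 of the single libraries; ELOB lies on the opposite strand of its gene. SRRM1 was at 27.4, 18.4 and 25.3 FPKM with the inhibitor, against 30.9, 31.6 and 28.05 FPKM with DMSO (−0.35, adjusted p = 0.187, limma). RBM25, a U1-linked regulator of BCL2L1 splicing, had a log2 fold change of 0.12 (SE 0.14).

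The U2AF heterodimer recognises the 3′ splice site, U2AF2 binding the polypyrimidine tract and U2AF1 the AG dinucleotide. U2AF2 was at 42.9, 26.3 and 45.1 FPKM in the inhibitor libraries, against 55.5, 54.9 and 63.8 FPKM in the DMSO libraries. The groups were apart, but with replicate 2 low the gene was not called (−0.63, SE 0.22, adjusted p = 0.0956, limma); without that replicate it was (−0.39, adjusted p = 0.0142, limma). U2AF1 was under the filter, at 0.582, 0.753 and 0.403 FPKM with the inhibitor, against 1.35, 1.14 and 0.881 FPKM with DMSO. The table lists a near-identical copy, U2AF1L5, on the same chromosome, at 0.531 to 0.691 FPKM with the inhibitor and 1.21 to 4.84 FPKM with DMSO, so how reads were divided between these genes is uncertain.

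Of 27 hnRNP genes, 22 were tested, 4 fell and 0 rose, against 10.0% of all genes called lower. Their median log2 fold change was −0.19. HNRNPH3 (ENSG00000096746, chromosome 10, 68331174 to 68343191), a small member of the G-tract binding F/H subfamily, was at 29.5, 20.1 and 25.5 FPKM with the inhibitor, against 44.2, 47.9 and 40.1 FPKM with DMSO. It had the largest change of the hnRNP genes called, −0.80 (SE 0.16, adjusted p = 0.0233, limma), with the groups apart. The gene overlaps PBLD and RUFY2 on the opposite strand, with at most 350 and 304 reads in a library, where its own highest was 3772. With the replicate number as a block, HNRNPH3 was not called. Its relative HNRNPH1 (ENSG00000169045, chromosome 5, 179614178 to 179634784) was at 35.2, 34.7 and 31.9 FPKM with the inhibitor, against 49.5, 48.3 and 42.4 FPKM with DMSO (−0.45, SE 0.11, adjusted p = 0.0433, limma). The other 2 of the subfamily were not called: HNRNPH2 had a log2 fold change of −0.13, and HNRNPF was at 138, 125 and 137 FPKM with the inhibitor, against 139, 132 and 139 FPKM with DMSO. For HNRNPF the groups overlapped (−0.04, SE 0.11, adjusted p = 0.837, limma), and its sign turned with quantile normalization, with the length trend removed and without inhibitor replicate 2.

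HNRNPDL (ENSG00000152795, chromosome 4, 82422564 to 82430408), a paralogue of the AU-rich element binding protein HNRNPD, was at 23.9, 17.04 and 20.9 FPKM with the inhibitor, against 33.1, 33.99 and 29.3 FPKM with DMSO (−0.63, SE 0.15, adjusted p = 0.0361, limma). HNRNPD itself, also on chromosome 4, was at 34.3, 21.7 and 28.2 FPKM with the inhibitor, against 38.2, 39.6 and 38.6 FPKM with DMSO. All 3 of its inhibitor values were below DMSO without a call (−0.48, SE 0.17, adjusted p = 0.108, limma). HNRNPC (ENSG00000092199, chromosome 14, 21209136 to 21269494), which forms the core particle on nascent RNA and competes with U2AF2 at uridine tracts, was at 56.05, 48.9 and 51.9 FPKM with the inhibitor, against 72.5, 69.6 and 67.7 FPKM with DMSO (−0.41, SE 0.11, adjusted p = 0.0476, limma).

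The A/B group and the remaining hnRNP genes were not called with all libraries. HNRNPA1, the splicing repressor with the highest level of the whole set, was at 261, 282 and 233 FPKM with the inhibitor, against 249.7, 249 and 236 FPKM with DMSO (0.07, SE 0.13, adjusted p = 0.712, limma). Its groups overlapped, and it took 14.9%, 17.6% and 14.05% of the summed level of the 50 genes in the inhibitor libraries, against 12.2%, 12.2% and 11.97% in the DMSO libraries. HNRNPA1 has many processed copies in the genome, so its reads and those of HNRNPA1L2 and HNRNPA1P48 may be divided uncertainly. HNRNPA2B1, its partner in core particles, was at 109, 107 and 92.1 FPKM with the inhibitor, against 141, 145 and 129 FPKM with DMSO; its groups were apart and it missed the threshold (−0.43, SE 0.13, adjusted p = 0.0623, limma). So did HNRNPAB, a CArG-box and RNA-binding member, at 78.8, 43.2 and 69.6 FPKM with the inhibitor, against 111, 109 and 105 FPKM with DMSO (−0.80, SE 0.23, adjusted p = 0.0585, limma). HNRNPA2B1 overlaps CBX3, HNRNPAB overlaps PHYKPL and HNRNPUL1 overlaps TGFB1, each on the opposite strand and expressed, as GATC is opposite SRSF9.

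Without inhibitor replicate 2 the hnRNP genes called lower numbered 11 of 22, against 23.1% of all genes tested. They were the 4 above with HNRNPA2B1, HNRNPAB, HNRNPD, HNRNPL, HNRNPLL, HNRNPM and HNRNPU. The added ones included HNRNPL and HNRNPLL, a pair that represses exons through CA-rich elements, with log2 fold changes of −0.31 and −0.33. HNRNPM, a regulator of epithelial and mesenchymal splicing, had −0.36, and HNRNPU, also called scaffold attachment factor A, had −0.25. With all libraries the values were −0.21 for HNRNPL, −0.28 for HNRNPLL, −0.29 for HNRNPM and −0.14 for HNRNPU. Without inhibitor replicate 2, HNRNPA0 and HNRNPUL2 were called higher, by 0.24 and 0.23 on the log2 scale. In that fit 17.5% of all genes tested were called higher. HNRNPA0 was at 37.9, 19.4 and 36.97 FPKM with the inhibitor, against 31.9, 31.3 and 31.7 FPKM with DMSO, so that inhibitor replicate 2 lay below the DMSO libraries and the other 2 above them. HNRNPUL2, at 6.29, 5.39 and 5.797 FPKM with the inhibitor, against 4.899, 5.09 and 5.03 FPKM with DMSO, was the regulator whose inhibitor libraries all lay above DMSO (0.18, SE 0.10, adjusted p = 0.260, limma). Of the rest, HNRNPR was at 32.2, 32.99 and 29.7 FPKM with the inhibitor, against 32.03, 32.2 and 30.5 FPKM with DMSO. Its log2 fold change was 0.0018 (SE 0.10). HNRNPK, HNRNPA3, HNRNPUL1, HNRNPA1L2 and HNRNPA1P48 had values from −0.27 to 0.16. Under the filter were HNRNPCL1, HNRNPCL2 and HNRNPCL4, with 0 reads in every library (3 reads over the 6 libraries would be 0.0287 to 0.0373 FPKM), HNRNPCL3, with at most 2 reads in a library, and the readthrough HNRNPUL2-BSCL2, with at most 3.

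**Figure D2:**
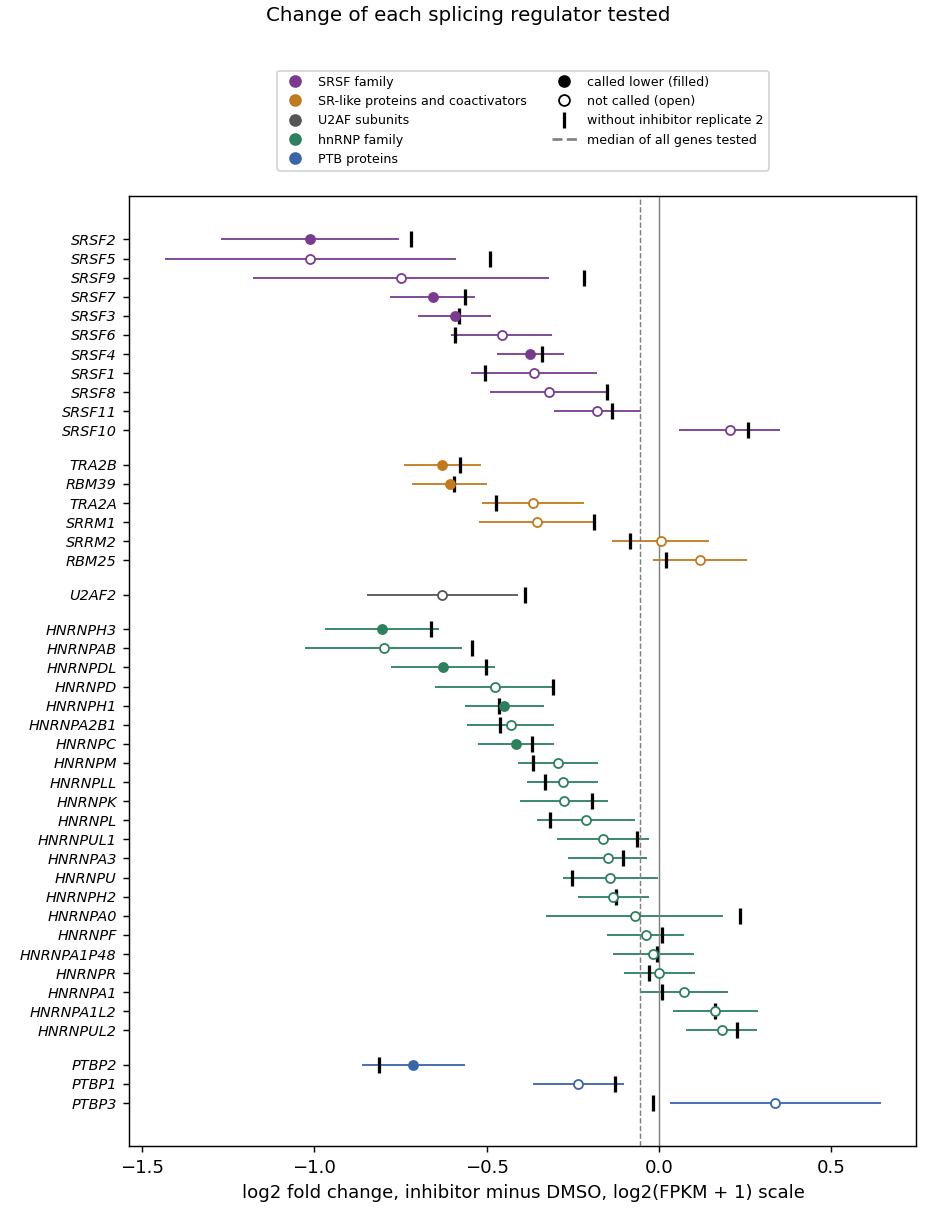
Log2 fold change (inhibitor minus DMSO, log2(FPKM + 1) scale) of the 43 regulators tested, by family; bars are standard errors, filled points were called, and black ticks give the value without inhibitor replicate 2. Most points lie left of the dashed line, the median of all genes tested at −0.05; the ticks of SRSF5, SRSF9, HNRNPA0 and PTBP3 lie farthest from their points.

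The 3 PTB proteins repress exons through pyrimidine tracts, and PTBP1 is known to keep PTBP2, the form of developing neurons, low by inducing an exon skip that leads to NMD. PTBP2 (ENSG00000117569, chromosome 1, 96721665 to 96823738) fell: it was at 2.07, 2.59 and 1.75 FPKM with the inhibitor, against 4.72, 4.08 and 3.59 FPKM with DMSO. The ratio of means was 0.517, and the log2 fold change on the log2(FPKM + 1) scale, compressed at this low level, was −0.71 (SE 0.15, adjusted p = 0.0250, limma). PTBP1 was at 59.6, 49.5 and 64.2 FPKM with the inhibitor, against 68.6, 65.7 and 68.7 FPKM with DMSO, all below but not called (−0.23, SE 0.13, adjusted p = 0.257, limma). PTBP3, whose level was 20.2, 39.6 and 16.8 FPKM with the inhibitor against 20.4, 19.4 and 16.4 FPKM with DMSO, had the highest value of the 43 regulators, 0.34 (SE 0.31, adjusted p = 0.469, limma). That value rested on inhibitor replicate 2 and was −0.02 without it.

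The deviation of inhibitor replicate 2 differed from gene to gene. Among the 43 regulators it was the lowest of the inhibitor libraries for 23, the highest for 13 and between the others for 7, and its ratio to the mean of the other 2 had a median of 0.907, against 0.967 over all genes tested. The ratio was 0.311 for SRSF5, 0.313 for SRSF9, 0.517 for HNRNPA0 and 0.525 for SRSF2, and 2.13 for PTBP3. Across the 43 regulators the ratio correlated with listed gene length at Pearson r = 0.267 (log scales) and Spearman rho = 0.261, a description over genes that share the same 3 libraries. Over 13381 genes tested the values were r = 0.075 and rho = 0.276. Nuclear protein-coding genes under 1500 bases took 1.09% of nuclear protein-coding reads in this library, against 2.27% and 2.36% in the other inhibitor libraries and 2.44% to 2.61% in DMSO. The part of these features in the calls was not tested. The 11 regulators called had log2 fold changes of −0.81 to −0.34 without this library. All of them were called in that fit, where 23.1% of all genes tested were called lower, against 10.0% with all libraries. Leaving out any other single library kept 5 or fewer of these calls.

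**Figure D3:**
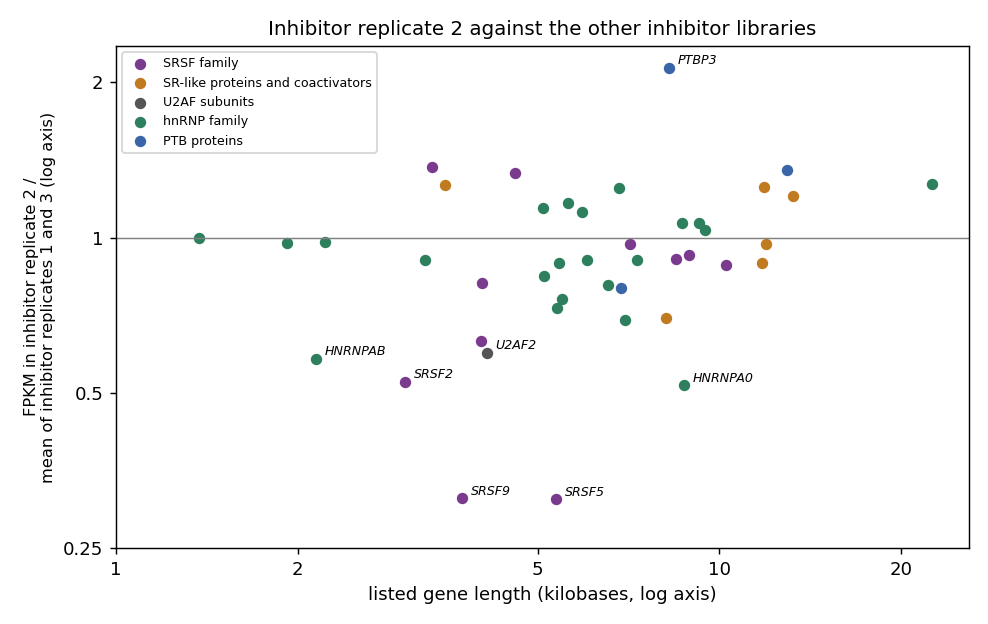
Ratio of the FPKM in inhibitor replicate 2 to the mean of inhibitor replicates 1 and 3 (log axis) against listed gene length in kilobases (log axis), 1 point per regulator tested, coloured by family. SRSF5 and SRSF9 lie near 0.31 and PTBP3 at 2.13, while most others lie closer to 1.

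Annotated transcripts ending in NMD were common in this set. In GENCODE 29, which lists 58724 of the 58735 genes at the same coordinates, 32 of the 43 regulators tested (74.4%) had at least 1 transcript typed as an NMD target, against 43.6% of the 10564 protein-coding genes tested. They included all 11 SRSF genes and all 6 SR-like proteins and coactivators tested, but 13 of the 22 hnRNP genes. RBM39 had 15 such transcripts, HNRNPU 9 and SRSF7 6. Of the 11 regulators called lower 9 had one, and of the 32 not called 23. The regulators tested also had more annotated transcripts of any type, with a median of 11 against 8 for the protein-coding genes tested. The part of this in the NMD shares was not tested. The deposited values are per gene, so productive and NMD transcripts are summed in them and the splicing of these exons was not analysed here.

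Genes that work beside these regulators were taken from lists of related splicing factors, also chosen with earlier results of these data known. Of 26 SR-related and exon junction proteins tested, 6 fell and 0 rose, with a median of −0.33. Over all genes tested, 10.0% were called lower and 7.18% higher. CCNL1, a cyclin that binds the kinases of splicing factors, was at 11.7, 8.74 and 9.74 FPKM with the inhibitor, against 27.9, 27.2 and 22.6 FPKM with DMSO (−1.29, SE 0.15, adjusted p = 0.00472, limma), and was called in each fit that left out 1 library. ACIN1 (−0.66), a component linked to the exon junction complex, SCAF4 (−0.62), which restrains early polyadenylation, and SRRT (−0.53), which works with the cap-binding complex, also fell.

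Of 21 U2 snRNP and 3′ splice site factors tested, 7 fell and 0 rose, with a median of −0.43. The share of all genes tested that were called lower was 10.0%. PUF60, which binds polypyrimidine tracts together with U2AF2, was at 18.2, 14.9 and 19.3 FPKM with the inhibitor, against 31.4, 31.2 and 36.7 FPKM with DMSO (−0.89, SE 0.14, adjusted p = 0.0112, limma). The U2 snRNP subunit SF3A1 (−0.56), the U2-associated protein CHERP (−0.70) and ZRSR2 (−0.47), the counterpart of U2AF1 in the minor spliceosome, fell as well.

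Among 43 other sequence-specific splicing regulators tested, of 48 listed, 9 fell and 1 rose, with a median of −0.23. The shares of all genes tested were 10.0% called lower and 7.18% higher. RBM22 (−0.74), a protein of the catalytic spliceosome, CELF1 (−0.67), which binds GU-rich elements, RBM15 (−0.72) and SFPQ (−0.55), a paraspeckle protein, fell, and TIA1, which binds uridine tracts beside 5′ splice sites, rose by 0.56; TIA1 is named as the single gene that rose. Of 11 SR protein kinases, phosphatases and carriers tested, 2 fell and 0 rose, against 10.0% of all genes called lower. Their median was −0.46. The 2 were PRPF4B (−0.57), a kinase of the tri-snRNP, and DYRK1A (−0.46), a kinase found in nuclear speckles. With no filter 0 of this list were called lower, and with TPM or quantile normalization 1. Without inhibitor replicate 2 the counts were 15 lower and 1 higher for the SR-related list, 15 and 0 for the U2 list, 18 and 4 for the other regulators and 7 and 0 for the kinases and phosphatases, where 23.1% of all genes were called lower and 17.5% higher. When libraries were dropped singly, each named gene of the 4 lists except CCNL1 kept its call in 1 to 4 of 6 fits. Among PRMT5 and its cofactors, PRMT5 and WDR77 fell, and COPRS, RIOK1 and CLNS1A were not called.

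**Figure D4:**
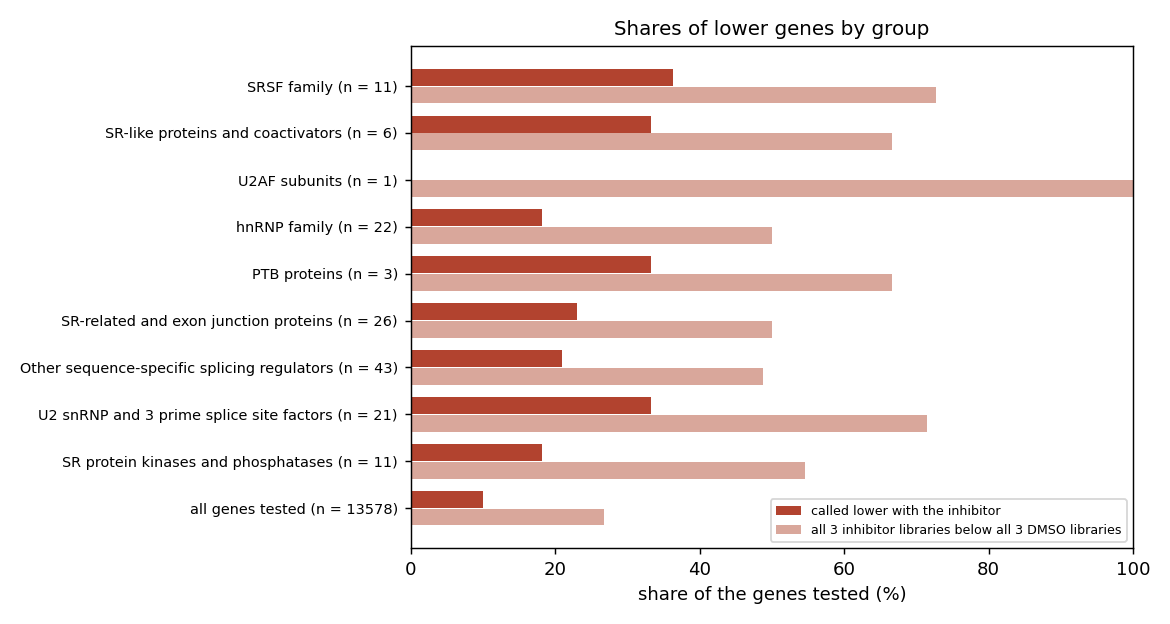
Share of the genes tested (%) in each family or list that were called lower with the inhibitor (dark bars) and whose 3 inhibitor libraries all lay below the 3 DMSO libraries (light bars), with n genes tested. The dark bars reach 36.4% for the SRSF family and 18.2% for the hnRNP family, against 10.0% for all genes tested; U2AF rests on 1 gene.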

How the data were processed

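The authors deposited 1 table of FPKM values per gene, with a listed gene length and 1 column for each of 6 libraries; columns were matched to libraries by title. Per the labels' protocols, a directional kit was used on total RNA. Per the submitters' processing notes, hg38 was the build. For the aligner, counter, annotation release and strand setting, nothing is stated in the sources used here. FPKM times gene length gave whole reads times 1 factor per library for 100% of values above 0 (tolerance 0.01 reads), which gives the depth. Libraries of a group differed by more than sampling noise (chi-square per degree of freedom of 2.48 to 98.7), so none was merged.

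A gene was tested if 3 or more libraries reached 1 FPKM, and was fitted as log2(FPKM + 1) with limma 3.58.1 in R 4.3.3 (lmFit, eBayes with trend, no block, two-sided tests), adjusted by Benjamini-Hochberg over all 13578 genes tested at a threshold of 0.05. The script was tested on simulated reads with the same noise level, taken from the DMSO libraries, in every library. Such a test cannot show how calls behave with a library as divergent as inhibitor replicate 2. The regulators and gene lists were chosen with earlier results of these data known. Values are given for each regulator called, for SRSF3, SRSF7, TRA2B and RBM39, for the 2 highest of each family and the 2 largest changes each way, and from each related list for up to 4 called genes with the smallest adjusted p. Other genes were named after their values were seen. Alternatives were a pseudocount of 0.1, no filter or 5 FPKM, quantile, TPM and median-of-ratios scaling, no trend, a replicate block, a loess length trend removed (span 0.3), leaving out each library, and limma-voom on recovered reads. Python 3.11.15, pandas 2.3.3 and matplotlib 3.10.9 were used.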

Additional observations from a re-analysis of the deposited data

How the results depend on the processing

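With each library left out in turn, 0 to 23 splicing regulators were called lower and 0 to 2 higher, against 478 to 5513 of all genes (264 to 3141 lower, 214 to 2372 higher). The families ranged over 0 to 7 (SRSF), 0 to 3 (SR-like), 0 to 1 (U2AF), 0 to 11 (hnRNP) and 0 to 1 (PTB) lower, and the lists over 1 to 15 lower and 0 to 1 higher (SR-related), 0 to 18 and 0 to 4 (other regulators), 0 to 15 lower (U2) and 0 to 7 lower (kinases). With no filter, 6 regulators fell (1 hnRNP, 0 PTB), 0 kinases, and 1533 genes in all (861 lower); the larger number of genes tested enters the adjustment. At 5 FPKM 1505 of 7382 genes were called (446 higher), with 0 PTB and 1 kinase lower, PTBP2 being below that filter. Quantile normalization called 5 regulators lower (2 SRSF, 1 SR-like, 1 hnRNP), 3 other regulators, 4 U2 factors and 1 kinase, against 1053 of 13578 genes. With it 28 regulators lay below 0. TPM called 7 regulators (2 SRSF, 2 hnRNP) and 1 kinase lower, against 1228 of 13578 genes. With the length trend removed 13 regulators and 1 kinase were called lower, against 1468 of 13578 genes. The cause was not tested. No regulator was called higher except without inhibitor replicate 2, and each of the 11 called kept its sign. The sign turned for HNRNPF with quantile normalization (0.14), the length trend removed (0.0912) and without inhibitor replicate 2 (0.0094; −0.0645 to 0.0094 over the libraries left out), for PTBP3 without that library (−0.0151; range −0.0151 to 0.578), and for SRRM2 with TPM (−0.0284), the length trend removed (−0.13) and without inhibitor replicates 2 and 3 and DMSO replicates 1 and 2 (range −0.0842 to 0.107).

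With the replicate number as a block, 5 regulators were called lower (2 SRSF, 0 hnRNP), as were 4 other regulators (0 higher), 3 U2 factors and 0 kinases, and 1478 genes in all (872 lower, 606 higher). The regulators not called with the block were SRSF2, SRSF4, HNRNPC, HNRNPDL, HNRNPH1 and HNRNPH3 (limma, adjusted p 0.0589 to 0.0837). Deviations of libraries with the same number correlated at −0.0179, 0.157 and 0.248. Inhibitor replicates 2 and 3 correlated best with the DMSO library of their own number, and inhibitor replicate 1 with DMSO replicate 3 (0.0920). Whether the numbers pair the libraries cannot be told from these values.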
